A study of Mus musculus with 8 samples.

Results

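The 10 genes described here, Nefl, Nefm, Nefh, Ina, Sncg, Thy1, Rbpms, Gap43, Stmn2 and Uchl1, are commonly used to mark retinal ganglion cells, their axons or growing neurites. They were chosen by name, as the rows carrying these symbols in the deposited tables, and are 10 of 21830 genes measured. RNAseq was done on 8 samples of ICR mice (strain slc:ICR), with 1 library per condition: whole retinas at embryonic day 15 (E15) and embryonic day 18 (E18), and retinal cells separated at postnatal day 2 (P2), P5 and P8 into a fraction positive for Cd73 at the cell surface (Cd73PC) and a fraction negative for it (Cd73NC). Cd73, the product of Nt5e, is found on rod precursors and rods, so that Cd73NC was meant to hold the other retinal cells. The paper states that sorting was kept quick at the expense of purity. At P2 the cells of 20 retinas were pooled, at P5 those of 12, and at P8 again those of 20, and they were dissociated with trypsin and sorted by flow cytometry, while the embryonic retinas were not sorted. No group carries an engineered allele, and none was treated. Because no condition has a replicate library, no difference below has a replicate check, and no test, standard error or p-value is given.

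Retinal ganglion cells are the output neurons of the retina, and they are the retinal neurons that send long axons through the optic nerve to the brain. Neurofilaments are the intermediate filaments of axons. They are built from a light, a medium and a heavy subunit (Nefl, Nefm and Nefh) and, in central neurons, from alpha-internexin (Ina), and the heavy subunit is typically added late, as axons mature and widen. Ganglion cells are the first neurons born in the retina, and many of them die in the first days after birth in the mouse.

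An entry in the RefSeq promoter table used here (assembly GRCm38.p6) was matched by symbol for 3 of the 10 genes. The 250 bases before the transcription start of these 3 genes are shown. The other members were Nefl, Nefm, Nefh, Thy1, Rbpms, Gap43 and Stmn2. Sequences run 5′ to 3′ on the strand of the gene, and capitals mark the GC box (GGGCGG, read on either strand).
Ina: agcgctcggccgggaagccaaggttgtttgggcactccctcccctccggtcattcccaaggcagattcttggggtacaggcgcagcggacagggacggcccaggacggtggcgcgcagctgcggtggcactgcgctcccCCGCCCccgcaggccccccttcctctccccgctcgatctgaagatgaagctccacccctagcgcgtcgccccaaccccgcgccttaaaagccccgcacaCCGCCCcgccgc
Uchl1: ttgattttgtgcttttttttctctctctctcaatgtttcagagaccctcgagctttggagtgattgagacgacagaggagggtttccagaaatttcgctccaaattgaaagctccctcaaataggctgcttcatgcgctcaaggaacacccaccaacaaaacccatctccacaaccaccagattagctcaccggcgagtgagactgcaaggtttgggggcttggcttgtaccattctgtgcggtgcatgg
Sncg: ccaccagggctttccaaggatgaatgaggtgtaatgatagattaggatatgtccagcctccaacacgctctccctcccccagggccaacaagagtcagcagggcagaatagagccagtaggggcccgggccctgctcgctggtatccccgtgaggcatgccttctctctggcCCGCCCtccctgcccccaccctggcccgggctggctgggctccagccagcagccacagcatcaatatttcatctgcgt
The stretch of Ina (chr19:47014431-47014680, plus strand) had a GC content of 70.8% and 2 GC boxes. The stretch of Uchl1 (chr5:66675871-66676120, plus strand) had a GC content of 48.8% and no GC box, and that of Sncg (chr14:34374670-34374919, minus strand) had 61.6% and 1 GC box. The median GC content of the 32851 promoter stretches of this length was 52.4%. A GC box was found in 32.7% of them. Other motifs were searched on both strands as well. The TATA box, TATAAA, was found in 12.4% of all stretches. A core bound by many homeodomain proteins, with the letters TAATTA, was found in 4.84% of them. The core bound by Crx and Otx2 in photoreceptors, with the letters TAATCC, was found in 6.25%. None of these 3 motifs was found in the sequences shown, so that the GC boxes did not overlap any of them. These matches describe the letters only, and no binding was measured here. The stretches of Ina and Uchl1 thus differed in base composition and in GC boxes.

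Expression is given as FPKM, the number of sequenced fragments scaled to the length of the transcript and to the size of the library, with the lower and upper confidence bounds that Cufflinks gave for the estimate within the library. The 8 libraries were comparable in depth, from 0.966 (E15) to 1.62 (Cd73PC at P2) times that of E18. FPKM lay above its own upper bound in 18 of the 80 values of the 10 genes, 7 of them in Uchl1, and was never below the lower bound. Where a pair of values is given for a postnatal stage, the first is that of Cd73NC and the second that of Cd73PC. A gene is called higher or lower when FPKM + 1 differed by more than 1.5-fold, the fold threshold used in the study. Nt5e was at 2.43 FPKM in Cd73NC and 97.3 in Cd73PC at P2, 31.4 against 130.8 at P5, and 9.38 against 124 at P8, and 12 of 12 rod markers were called higher in Cd73PC at each stage. Their summed FPKM was 115 in Cd73NC against 4732 in Cd73PC at P2, 1348 against 11128 at P5, and 1282 against 17994 at P8. Cd73NC was thus not free of rod RNA, above all at P5 and P8.

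The name ganglion cell genes was checked against 12 markers of these cells. Pou4f1, a transcription factor that defines most ganglion cells, was at 28.1 FPKM at E15, 26.9 at E18, 1.09 in Cd73NC at P2, and between 0.171 and 0.553 in the other 5 fractions. Its relative Pou4f2 was at 45.6 FPKM at E15 and 14.2 at E18, and at 0.391 or less in every sorted fraction. Pou4f3 was at 6.21 and 11.7 FPKM in the embryonic retinas, at 0.249 and 0.0434 in the P2 fractions, and listed at 0 in the 4 fractions of P5 and P8. These 3 defining markers were therefore plain in the whole embryonic retinas and low in the fractions, above all at P5 and P8, and values of the 10 genes there cannot be read as ganglion cell values from the name alone. Other markers of the list kept signal in the fractions. Atoh7, a factor of ganglion cell precursors, was at 116 FPKM in Cd73NC and 20.9 in Cd73PC at P2, Ebf3 was at 10.2 in Cd73NC at P5, and Isl1, which is also used by bipolar cells, was at 26.8 in Cd73NC at P5 and 294 at P8.

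Nefl, the light neurofilament subunit (14:68701941-68705794 in mm9, plus strand), was measured at 201 FPKM at E15 and 125 at E18. It was at 5.90 FPKM in Cd73NC and 1.94 in Cd73PC at P2, 0.352 against 0.363 at P5, and 0.488 against 0.290 at P8. The embryonic retinas thus held nearly all of the Nefl signal, and the bounds of the P5 and P8 fractions overlapped between each neighbouring pair in the order of levels.

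Nefm, the medium subunit, lies beside Nefl on the opposite strand (14:68737602-68743061, minus strand). It was at 129.9 FPKM at E15, 54.4 at E18, 6.27 and 2.02 in Cd73NC and Cd73PC at P2, 1.39 against 0.353 at P5, and 0.841 against 0.172 at P8. Cd73NC was above Cd73PC at each stage without overlap of the bounds, unlike Nefl, whose fractions overlapped at P5 and P8.

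Nefh, the heavy subunit (11:4838759-4848067, minus strand), had another order. It was at 0.850 FPKM at E15, 1.78 at E18, 0.248 in Cd73NC and 1.21 in Cd73PC at P2, 1.05 against 5.90 at P5, and 1.14 against 7.92 at P8. Its highest value was in Cd73PC at P8 (bounds 7.15 to 8.65), where it ranked 6780th among the genes of the library, and its lowest was in Cd73NC at P2 (bounds 0.131 to 0.353). The levels of Cd73PC at P2, Cd73NC at P8 and P5, and E15 followed each other with overlapping bounds. The Nefh row shares 544 bases at one end with Ap1b1 on the other strand, and the library kit does not mark strand. Ap1b1, a subunit of a clathrin adaptor that was looked up for this overlap, was at 28.5 and 28.9 FPKM at E15 and E18, 23.9 and 55.4 in Cd73NC and Cd73PC at P2, 48.1 against 91.1 at P5, and 52.3 against 123 at P8. Both genes were thus higher in Cd73PC at each stage, with log2 ratios of 1.18, 0.91 and 1.22 for Ap1b1 and of 0.83, 1.75 and 2.06 for Nefh. The part of reads from the shared bases in the Nefh values was not tested.

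Ina, alpha-internexin (19:47089188-47098836, plus strand), was at 274 FPKM at E15, 162 at E18, 35.2 and 8.28 in Cd73NC and Cd73PC at P2, 13.9 against 3.16 at P5, and 50.1 against 7.71 at P8. It was the most abundant neurofilament gene in every library but Cd73PC at P5 and P8, where Nefh was above it, at P8 with overlapping bounds. In both fractions the P5 value was the lowest of the 3 stages. The Ina row shares 492 bases with Nt5c2 on the other strand, and Nt5c2, looked up for this overlap, was nowhere above 18.1 FPKM and was lower at P8 than at P5 in both fractions.

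Sncg, gamma-synuclein, is a small protein abundant in ganglion cells and their axons (14:35183460-35187855, minus strand). It was at 485 FPKM at E15, 295 at E18, 3.65 in Cd73NC and 1.39 in Cd73PC at P2, listed at 0 in Cd73NC and at 0.336 in Cd73PC at P5, and at 0.0829 and 0.0985 at P8. At E15 it was the 79th most abundant gene, and its FPKM there was above its own bounds (342 to 372). From P2 on, neighbouring levels had overlapping bounds throughout.

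Thy1, a small surface glycoprotein of neurons that serves as a classical ganglion cell marker in the retina (9:43851467-43856662, plus strand), was at 2.28 FPKM at E15 and 29.2 at E18. It was at 0.580 in Cd73NC and 0.214 in Cd73PC at P2, 0.0752 against 0.194 at P5, and 0.974 against 0.238 at P8. Its single high value was thus that of E18.

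Rbpms, an RNA-binding protein found in ganglion cell bodies (8:34893116-35040313, minus strand), was at 55.1 FPKM at E15, 40.1 at E18, 1.79 and 0.780 in Cd73NC and Cd73PC at P2, 0.970 against 1.58 at P5, and 1.10 against 1.44 at P8. In the order of levels each sorted fraction overlapped its neighbour in bounds, but Cd73NC and Cd73PC at P2 did not overlap each other (1.27 to 2.30 and 0.494 to 1.07).

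The last 3 genes are general to neurons that extend processes. Gap43, a protein of growth cones (16:42248674-42340764, minus strand), was at 512 FPKM at E15, 241 at E18, 31.4 and 9.51 in Cd73NC and Cd73PC at P2, 10.8 against 2.54 at P5, and 11.1 against 1.43 at P8. Stmn2, a tubulin-binding stathmin of growing axons (3:8509527-8561604, plus strand), was at 346 FPKM at E15, 229 at E18, 62.8 and 16.3 at P2, 6.96 against 1.88 at P5, and 3.77 against 0.797 at P8. Uchl1, a neuronal deubiquitinating enzyme (5:67067360-67078473, plus strand), was at 301 FPKM at E15, 221 at E18, 65.0 and 29.0 at P2, 51.6 against 20.9 at P5, and 101 against 15.5 at P8. All 3 were higher in Cd73NC than in Cd73PC at every stage, but Stmn2 was lower at each later stage in both fractions, whereas Uchl1 in Cd73NC had its highest sorted value at P8.

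**Figure D1:**
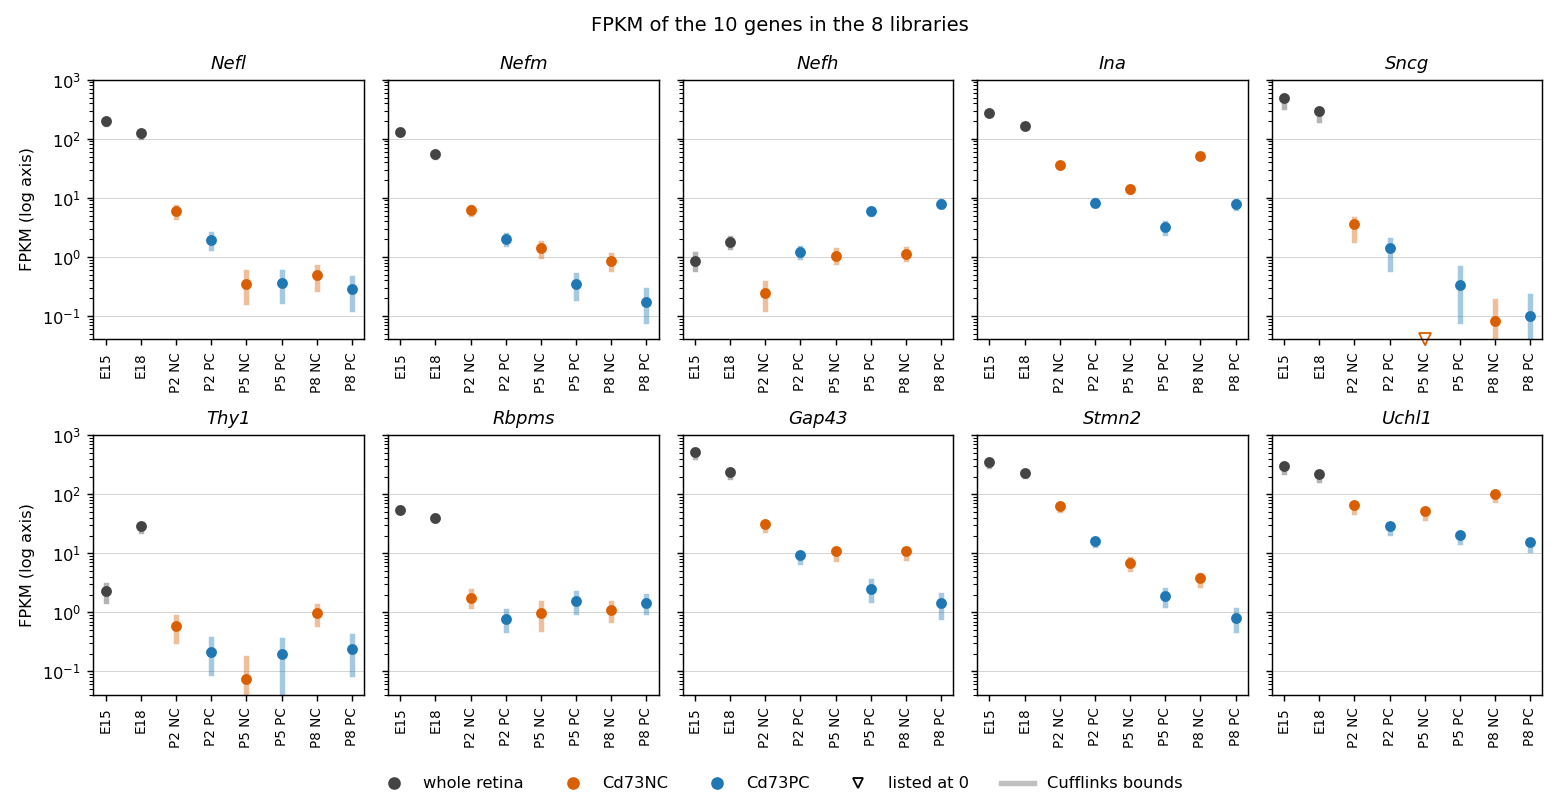
FPKM (log axis) of the 10 genes in each library, with whole retinas in grey, Cd73NC in orange and Cd73PC in blue; vertical bars are the Cufflinks bounds within the library and the open triangle marks a value listed at 0. Nefh is the single panel with its highest point in Cd73PC (7.92 FPKM at P8), and Thy1 is the single panel in which E18 is far above E15 (29.2 against 2.28 FPKM).

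The summed FPKM of the 10 genes was 2307 at E15, 0.623% of the FPKM of all genes, and 1398 at E18, 0.370%. Among the sorted samples the sums were 213 (Cd73NC) and 70.7 (Cd73PC) at P2, 87.1 against 37.2 at P5, and 170.5 against 35.6 at P8. The sum in Cd73NC was thus higher at P8 than at P5, and Uchl1 and Ina made up most of it. Of the 10 genes, 9 were at 1 FPKM or more at E15, 10 at E18, 8 in each fraction of P2, 6 in each of P5, and at P8 6 in Cd73NC but 5 in Cd73PC.

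The whole retinas of E15 and E18 were compared to see how the genes stood before birth. Between them 6 of the 10 genes were lower at E18, 2 were higher and 2 were within 1.5-fold, where 2.10% of all genes were lower and 4.61% higher. After quantile normalization these shares of all genes were 3.01% and 3.59%, and 1 of the 10 genes was higher. Among genes with at least 1 FPKM in some library, without rescaling, 3.32% were lower and 7.37% higher. Nefm was 2.39-fold lower at E18 (log2 ratio of FPKM + 1, -1.24), Gap43 2.12-fold (-1.08), Ina 1.69-fold (-0.75) and Sncg 1.65-fold (-0.72), and Nefl and Stmn2 were the others called lower. Thy1 was 12.8-fold higher at E18 (3.20), and its bounds at E18 (24.2 to 29.7) lay far above those at E15 (1.54 to 2.96). Nefh was 2.10-fold higher on FPKM, with a log2 ratio of FPKM + 1 of 0.59 that lay just past the threshold and was 0.57 after upper quartile scaling. Rbpms and Uchl1 were 1.37-fold and 1.36-fold lower. The median log2 ratio of the 10 genes was -0.64, against 0.04 for the genes with at least 1 FPKM in some library. In whole tissue, fewer cells of a type and less RNA per cell cannot be told apart.

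Cd73NC at P2 was then set beside the whole retina of E18. All 10 genes were called lower in Cd73NC at P2, with bounds apart in all 10, where 8.20% of all genes were lower and 3.20% higher (5.55% and 4.48% after quantile normalization). Among genes with at least 1 FPKM in some library, 12.8% were lower and 5.14% higher. The median log2 ratio of the 10 genes was -2.92, against -0.04 for genes with at least 1 FPKM in some library. Sncg was 80.8-fold lower (-5.99), Thy1 50.4-fold (-4.26), Rbpms 22.5-fold (-3.88) and Nefl 21.1-fold (-4.19). Nefm was 8.69-fold lower (-2.93), Gap43 7.68-fold (-2.90) and Nefh 7.18-fold (-1.16). Ina was 4.59-fold lower (-2.17), Stmn2 3.66-fold (-1.85) and Uchl1 3.40-fold (-1.75). The 3 genes named as ganglion cell markers proper, Sncg, Thy1 and Rbpms, thus had with Nefl the largest FPKM ratios, and Ina, Stmn2 and Uchl1 the smallest. On FPKM + 1 the smallest difference was that of Nefh, whose values were low in both libraries.

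Markers of other cells were read over the same pair of libraries. Of the 12 ganglion cell markers 11 were lower, with a median log2 ratio of -2.69 and a sum of 312 FPKM at E18 and 133 in Cd73NC at P2. Atoh7 was within 1.5-fold at 143 and 116 FPKM. Of 13 amacrine cell markers measured (of 16 listed) 2 were lower and 2 higher (median 0.07, sums 405 and 344), and of 8 horizontal cell markers (of 9 listed) 5 were lower and none higher (sums 38.4 and 40.6). Of 11 progenitor and cycling cell markers 2 were lower and 1 higher (sums 2294 and 2101), and of 10 Müller glia and astrocyte markers 3 were lower and 3 higher (sums 768 and 1125). The median of the 10 genes was thus near that of the ganglion cell markers and far from those of the amacrine, progenitor and glial lists. The horizontal cell list lay in between, with a median of -0.66. The part of these cells in the differences was not tested. Stage, dissociation and sorting all differ between the 2 libraries and cannot be told apart.

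**Figure D2:**
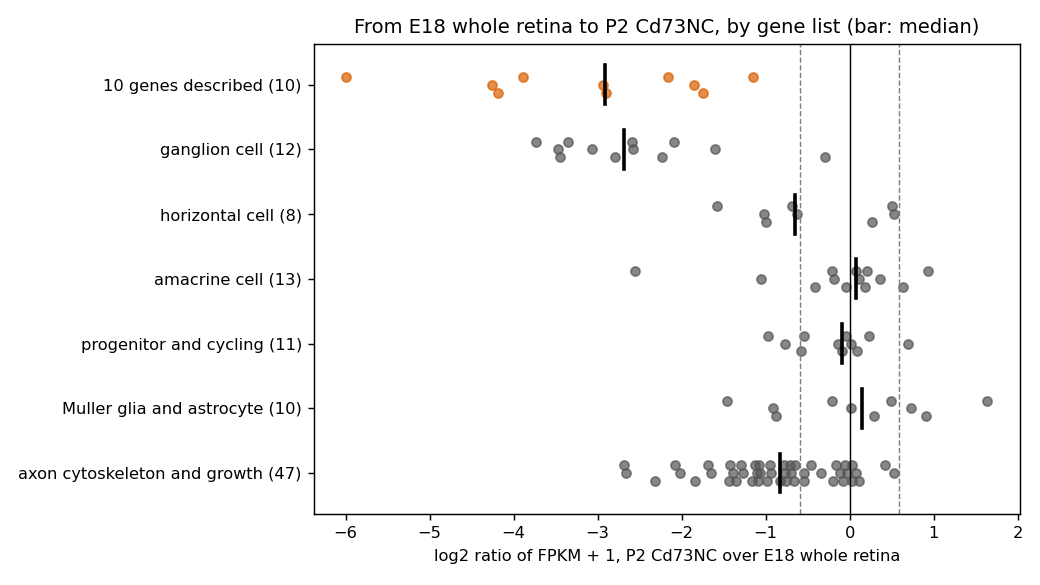
Log2 ratio of FPKM + 1, Cd73NC at P2 over E18 whole retina, for each gene of 7 lists (number measured in brackets); black bars are medians and dashed lines mark 1.5-fold. The 10 genes described and the ganglion cell markers lie to the left (medians -2.92 and -2.69), while amacrine, progenitor and glial markers scatter about 0. The horizontal cell markers have a median of -0.66.

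Within Cd73NC, 6 of the 10 genes were lower at P5 than at P2, 1 was higher and 3 were within 1.5-fold, where 9.51% of all genes were lower and 7.93% higher. Among genes with at least 1 FPKM in some library, 15.3% were lower and 12.7% higher. Nefl was 16.7-fold lower (-2.35), Stmn2 9.02-fold (-3.00), Nefm 4.51-fold (-1.60), Gap43 2.91-fold (-1.46) and Ina 2.53-fold (-1.28), and Sncg went from 3.65 FPKM to a listed 0. Nefh was 4.23-fold higher (0.72). Thy1 was within 1.5-fold on FPKM + 1 (-0.56), with bounds that were apart and an FPKM 7.71-fold lower at P5, and was called lower after quantile normalization (-0.60), which gave 7 members lower. The bounds of Uchl1 were apart as well, and its values, which lay above their own bounds in both libraries, differed by 1.26-fold. Over the same libraries 12 of 12 rod markers were higher at P5 (sums 115 and 1348 FPKM), as were 9 of 10 bipolar cell markers, 7 of 7 microglial markers, 6 of 7 pigment epithelium markers and 5 of 10 glial markers, while 8 of 13 amacrine cell markers and 9 of 11 progenitor markers were lower. Of the 12 ganglion cell markers 1 was lower and 3 were higher. The part of these cells was not tested.

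From P5 to P8 the Cd73NC values of Ina, Uchl1 and Thy1 were higher, Stmn2 was lower, and the other 6 were within 1.5-fold, where 7.79% of all genes were lower and 8.47% higher. Among genes with at least 1 FPKM in some library, 12.6% were lower and 13.3% higher. Ina was 3.60-fold higher (1.78; bounds 12.6 to 15.3 at P5 and 47.5 to 52.8 at P8) and Uchl1 1.96-fold (0.95; bounds 40.1 to 49.0 and 80.2 to 89.4). Both Uchl1 values, 51.6 and 101 FPKM, lay above their own bounds. Thy1 was 13.0-fold higher on FPKM (0.88 on FPKM + 1), from a P5 value of 0.0752 whose lower bound is 0. Nefl, Gap43 and Sncg, with which Ina and Uchl1 had been high in the embryonic retinas, had overlapping bounds between P5 and P8. Over the same pair of libraries 10 of 10 bipolar cell markers were higher in Cd73NC, with sums of 468 FPKM at P5 and 2319 at P8, and 7 of 7 microglial markers were higher (51.1 and 146). Of the 13 amacrine cell markers 8 were lower and none higher (165 and 66.4), and of the 12 ganglion cell markers 3 were lower and 1, Isl1, was higher. Pou4f1 was at 0.401 FPKM at P5 and 0.171 at P8, Pou4f2 at 0.0383 and 0.0146, and Pou4f3 was listed at 0 at both. The part of any of these cells in the values of Ina, Uchl1 and Thy1 was not tested.

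Within Cd73PC, 6 of the 10 genes were lower at P5 than at P2 and 1 was higher, where 8.57% of all genes were lower and 3.36% higher (5.36% and 5.09% after quantile normalization, with 2 of the 10 genes higher). Among genes with at least 1 FPKM in some library, 13.9% were lower and 5.35% higher. Stmn2 was 8.67-fold lower (-2.59), Nefm 5.72-fold (-1.16), Nefl 5.34-fold (-1.11), Sncg 4.15-fold with overlapping bounds (-0.84), Gap43 3.75-fold (-1.57) and Ina 2.62-fold (-1.16). Nefh was 4.86-fold higher (1.64). Rbpms was 2.03-fold higher on FPKM with overlapping bounds, at a log2 ratio of 0.54 that became 0.81 after quantile normalization. Over the same libraries 11 of 12 rod markers were higher at P5 (sums 4732 and 11128 FPKM), while 8 of 13 amacrine cell markers (124 and 94.8), 9 of 11 progenitor markers and 3 of 12 ganglion cell markers were lower. Their part was not tested. From P5 to P8, Stmn2 was called lower (2.36-fold, -0.68) and Ina higher (2.44-fold, 1.07), where 4.78% of all genes were lower and 3.31% higher, and 8 of the 10 genes were within 1.5-fold. Among genes with at least 1 FPKM in some library, 7.68% were lower and 5.33% higher. Nefh was 1.34-fold higher at P8 (0.37), with bounds that were apart (5.23 to 6.57 at P5 and 7.15 to 8.65 at P8). Between these libraries 10 of 10 bipolar cell markers and 8 of 12 rod markers were higher and 10 of 11 progenitor markers lower, and their part was not tested either.

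The fractions were compared at each stage to see which genes were higher in Cd73PC and which in Cd73NC. These comparisons use the same libraries as those between stages. At P2, 8 of the 10 genes were lower in Cd73PC (7 after quantile normalization) and 1, Nefh, was higher, where 14.4% of all genes were lower and 8.57% higher. At P5, 5 were lower and 1 was higher, where 15.6% of all genes were lower and 7.02% higher (10.9% and 10.4% after quantile normalization, with 2 of the 10 genes higher). At P8, 6 were lower and 1 was higher, where 18.6% of all genes were lower and 7.54% higher (12.7% and 12.2% after quantile normalization, with 4 of the 10 genes lower and 2 higher). The second gene higher after quantile normalization was Rbpms at both stages, with log2 ratios of 0.80 and 0.79 against 0.39 and 0.21 without rescaling. The median log2 ratios of the 10 genes were -1.18, -0.40 and -0.66, against -0.13, -0.17 and -0.22 for genes with at least 1 FPKM in some library. Of the genes at that level, which all 10 reach, 23.3% were lower and 13.7% higher in Cd73PC at P2. Their shares were 25.1% and 11.3% at P5, and 29.6% and 12.1% at P8.

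Ina, Uchl1, Gap43, Stmn2 and Nefm were lower in Cd73PC at all 3 stages, although the call of Nefm at P8 was lost after quantile normalization (-0.43). Ina was lower by 4.26-fold at P2, 4.40-fold at P5 and 6.50-fold at P8 (log2 ratios -1.97, -1.84 and -2.55). Uchl1 was lower by 2.24-fold, 2.48-fold and 6.52-fold (-1.14, -1.27 and -2.63). Gap43 was lower by 3.30-fold, 4.26-fold and 7.79-fold (-1.62, -1.74 and -2.32). The fractions were thus furthest apart at P8 for these 3 genes, and for Ina and Uchl1 the higher Cd73NC value of P8 went into this ratio. Stmn2 had log2 ratios of -1.88, -1.47 and -1.41, and Nefm of -1.27, -0.82 and -0.65, which were nearest to 0 at P8 on this scale. Their FPKM ratios at P8, 4.72-fold and 4.88-fold, were larger than those at P2, 3.85-fold and 3.11-fold, since adding 1 compresses the ratio of low values.

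Nefl was lower in Cd73PC at P2 (-1.23) and had overlapping bounds at P5 and P8. Sncg was called lower at P2 (-0.96) with overlapping bounds, and its P5 and P8 values were at 0.336 FPKM or less in both fractions. Thy1 was called lower at P8 alone (-0.67), on values of 0.974 and 0.238 FPKM, and after quantile normalization the ratio was -0.41. Rbpms was called lower at P2 (-0.65; -0.50 after quantile normalization, within 1.5-fold) and had overlapping bounds at P5 and P8. Nefh was higher in Cd73PC by 4.89-fold, 5.63-fold and 6.98-fold on FPKM (0.83, 1.75 and 2.06), with bounds that were apart at all 3 stages. It was the single gene among the 10 to be called higher in Cd73PC at any stage on FPKM + 1 without rescaling. Without the added 1, Rbpms (1.63-fold, overlapping bounds) and Thy1 (2.57-fold, overlapping bounds) also passed 1.5-fold at P5, and Sncg was at 0.336 FPKM against a listed 0.

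**Figure D3:**
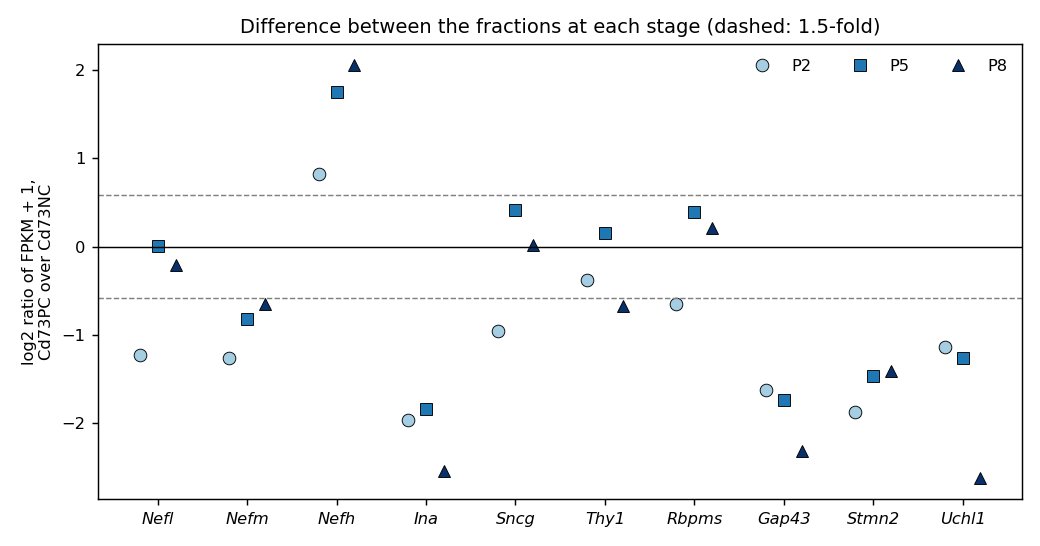
Log2 ratio of FPKM + 1, Cd73PC over Cd73NC, for the 10 genes at P2 (circles), P5 (squares) and P8 (triangles); dashed lines mark 1.5-fold. Nefh lies above the upper line at all 3 stages (0.83, 1.75 and 2.06), and Nefm, Ina, Gap43, Stmn2 and Uchl1 lie below the lower line at all 3.

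Other cells also differed between the fractions. Beside the rod markers, 11 of 11 progenitor and cycling cell markers were lower in Cd73PC at each stage. Their sums in Cd73NC and Cd73PC were 2101 and 531 FPKM at P2, 899.6 against 212 at P5, and 1292 against 166 at P8. At P2, 1 of 10 bipolar cell markers was lower in Cd73PC and 3 were higher. At P5, 7 were lower and 1 was higher, and at P8 all 10 were lower. Müller glia and astrocyte markers had 5 of 10 lower and 3 higher at P2, 9 lower at P5 and 10 at P8. Amacrine cell markers were lower for 9, 7 and 5 of 13 at P2, P5 and P8, with 1 higher at each stage. At P2, 7 of 7 microglial markers (sums 7.41 FPKM in Cd73NC and 42.4 in Cd73PC) and 6 of 7 markers of the retinal pigment epithelium (1.88 and 79.8) were higher in Cd73PC. Of the 12 ganglion cell markers 3, 4 and 2 were lower at P2, P5 and P8, and 6 of the 12 were at 1 FPKM or more in Cd73NC at P2 and 4 at P8. The part of these cells in the ratios of the 10 genes was not tested.

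The 4 neurofilament subunits differed from each other most clearly in their shares of the summed neurofilament FPKM, which is a share per length of transcript and not of protein. At E15 the sum was 606 FPKM, of which Ina made up 45.2%, Nefl 33.2%, Nefm 21.5% and Nefh 0.140%. At E18 the sum was 343 FPKM and the shares were 47.2%, 36.4%, 15.9% and 0.520%. The embryonic retinas thus had nearly the same makeup, with Ina and Nefl leading and Nefh almost absent.

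In Cd73NC the share of Ina came to 74.0% at P2, to 83.3% at P5 and to 95.3% at P8, of sums of 47.7, 16.7 and 52.6 FPKM. The share of Nefl there was 12.4%, 2.11% and 0.928%, and that of Nefh 0.521%, 6.28% and 2.16%. In Cd73PC the share of Nefh came to 9.03% at P2, to 60.4% at P5 and to 49.2% at P8, of sums of 13.5, 9.78 and 16.1 FPKM, and that of Ina 61.6%, 32.3% and 47.9%. By P8, Cd73NC carried almost Ina alone, and Cd73PC carried Nefh and Ina in similar amounts, with Nefl and Nefm at 1.80% and 1.07%. The FPKM of Nefl over that of Nefm was 1.55 at E15, 2.29 at E18 and 0.941 in Cd73NC at P2. In the P5 and P8 fractions this quotient rests on values of 1.39 FPKM or less.

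**Figure D4:**
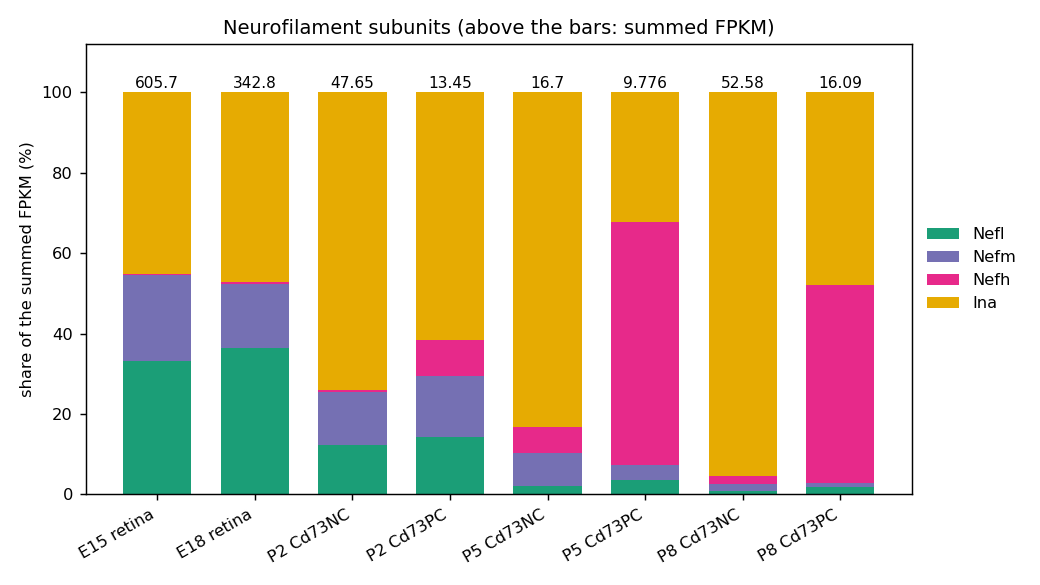
Share (%) of Nefl, Nefm, Nefh and Ina in their summed FPKM in each library, with the sum printed above each bar. Nefl and Nefm together outweigh Ina at E15 and E18, Ina makes up 95.3% in Cd73NC at P8, and Nefh makes up 60.4% and 49.2% in Cd73PC at P5 and P8.

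The other genes of the axon cytoskeleton and of axon growth were read from a list of 48, of which 47 were measured. In Cd73NC at P2 against E18, 31 were lower, none was higher and 16 were within 1.5-fold, with a median log2 ratio of -0.83. The 10 genes, with a median of -2.92, lay further from E18 than this list. Between the fractions, 28 of the 47 were lower and 8 higher in Cd73PC at P2, 24 against 6 at P5, and 32 against 6 at P8. From P5 to P8 in Cd73NC, 5 were lower and 21 higher (median 0.53), the stages between which Ina and Uchl1 were also higher. The genes of the list with the lowest mean log2 ratio of Cd73PC over Cd73NC were Mapt (-2.31), the axonal tau protein, and the collapsin response mediators Crmp1 (-2.23) and Dpysl5 (-2.15). Mapt was at 109 and 94.6 FPKM in the embryonic retinas, 22.6 and 5.67 in Cd73NC and Cd73PC at P2, 13.0 against 2.57 at P5, and 58.7 against 5.73 at P8, a course like that of Ina. Among the genes with the highest mean ratio were Snap25 (2.11), a protein of synaptic vesicle fusion, and Tuba4a (1.80), an alpha-tubulin. Tuba4a was at 0.573 and 1.80 FPKM in the embryonic retinas, 0.712 and 5.35 at P2, 3.51 against 10.1 at P5, and 2.96 against 17.3 at P8, so that Nefh was not alone among axonal cytoskeleton genes in being highest in Cd73PC at P8.

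Relatives of the 10 genes did not all have the same order. Sncb, beta-synuclein, was at 5.11 and 25.5 FPKM at E15 and E18, between 12.6 and 17.8 in the P2 and P5 fractions, and at P8 reached 186 in Cd73NC, against 48.7 in Cd73PC. Sncb was thus highest in Cd73NC at P8, where Sncg was at 0.0829 FPKM.

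Rbpms2 was at 31.1 and 22.6 FPKM at E15 and E18, 4.43 and 2.43 at P2, 1.46 against 3.97 at P5, and 1.11 against 5.74 at P8. Like Rbpms it was lower in Cd73NC at P2 than at E18 (-2.12), and it was higher in Cd73PC at P5 (1.02) and P8 (1.67). Of the stathmins, Stmn1 was at 1442 FPKM at E18 and 1409 in Cd73NC at P2, Stmn3 at 158 and 74.4, and Stmn4 at 60.4 and 18.1, with log2 ratios of -0.03, -1.08 and -1.69 beside -1.85 for Stmn2. From P5 to P8 in Cd73NC, Stmn3 (1.70) and Stmn4 (1.48) were higher while Stmn2 was lower (-0.74). Prph, peripherin, the neurofilament partner of peripheral neurons, was at 1.23 FPKM or less in every library. Vim and Nes, intermediate filaments of progenitors and glia, were at 187 and 19.2 FPKM at E18 and 218 and 23.5 in Cd73NC at P2, both within 1.5-fold, unlike the 4 neurofilament genes. In all, 7 of the 16 relatives were lower in that comparison, none was higher and 9 were within 1.5-fold.

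Likeness of profiles was measured as the root-mean-square difference of log2(FPKM + 1), centred on each gene's own mean, over the 8 libraries. Among 8794 genes reaching 10 FPKM in some library, the 10 themselves left out, the closest to the mean of the 10 genes were Pou4f1 (0.36), Scn3b (0.41), a sodium channel subunit, Spock1 (0.43), Dcx (0.44), a microtubule protein of young neurons, and Aldh1a3 (0.45), a retinoic acid synthesizing enzyme. Pou4f1 is itself in the ganglion cell list. Scn3b was at 17.3 and 14.4 FPKM in the embryonic retinas and at 2.58 or less in the fractions.

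The genes closest to Nefh were Gm88 (0.28), Ccdc64 (0.31) and Pitpnm1 (0.33), a phosphatidylinositol transfer protein, all at their highest in Cd73PC at P8. Pitpnm1 was at 76.8 and 70.6 FPKM at E15 and E18, 37.2 and 90.1 at P2, 68.4 against 189 at P5, and 108 against 249 at P8. The genes outside the 10 that were closest to Gap43 were further from it, Dcx and Sfrp2 at 0.78 and Gal at 0.79. Among the 10 genes, the closest pairs were Gap43 and Nefm (0.49), Nefl and Nefm (0.56), Gap43 and Stmn2 (0.70), Ina and Uchl1 (0.70) and Nefl and Sncg (0.70). These distances describe 8 single libraries that share stages and sorts.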

How the data were processed

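RNA from 8 samples (2 whole embryonic retinas and 6 sorted fractions) was poly(A) selected and sequenced as single-end reads of 36 bases. The authors aligned the reads to mm9 with TopHat2 2.0.8b and estimated expression with Cufflinks 2.1.1 at default settings, and deposited FPKM with confidence bounds for 23021 rows per library, with coordinates from 0, to which 1 was added here. FPKM is divided by transcript length and mapped fragments, so read counts and absolute depth are unknown. Relative depth was taken from the steps between low values. From these values, 794 small RNA rows were left out, rows of 234 repeated symbols were summed, and 4 to 10 failed rows per library were taken as missing, which left 21830 genes (21810 with all values). Each of the 10 genes had 1 row, with a successful estimate in every library. Rows outside their own bounds numbered 1428 to 2170 per library.

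Each pair of conditions was compared as log2 of FPKM + 1, with calls past 1.5-fold and by whether bounds overlapped. The members and gene lists were chosen with earlier results of these data known. Named beside the 10 genes were the genes closest in profile (5 to their mean, 3 each to Nefh and Gap43), the 3 lowest and 3 highest genes of the axon list by mean fraction ratio (40 reaching 10 FPKM), relatives, cell type markers, and 2 genes that overlap members. Some of the genes this rule names are not reported here. Alternatives were pseudocounts of 0 and 0.1, a filter at 1 FPKM, upper quartile and quantile scaling, and a 2-fold threshold. Further ones were 1.5-fold calls that also needed the bounds to be apart, and all rows kept. The code was tested on simulated data. Python 3.11.15, numpy 2.4.6, pandas 2.3.3 and matplotlib 3.10.9 were used.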

Additional observations from a re-analysis of the deposited data

How the results depend on the processing

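The 9 comparisons gave 198 summary values under the alternatives (members called in each direction and median log2 ratios). Of these, 172 stayed within 1.5-fold of the reported value and 26 moved. No median log2 ratio changed sign, and counts of members have no sign to change. The filter at 1 FPKM, 1.5-fold calls that also needed the bounds to be apart, and all rows kept moved none. The filter and all rows kept could not move a member value, since each gene has 1 row and reaches 1 FPKM in some library. The filter did raise the shares of genes called, for example from 18.6% to 29.6% lower in Cd73PC at P8. Bounds alone, not among the alternatives, gave 2 higher in Cd73PC at P5, and 2 lower and 2 higher for P8 against P5 in Cd73PC. With a pseudocount of 0.1, Cd73PC against Cd73NC had 4 members higher at P5 and a median of -1.73 at P8, P8 against P5 in Cd73NC had 2 lower, P5 against P2 in Cd73PC had 2 higher and a median of -1.57, and P8 against P5 in Cd73PC had 4 lower. With no pseudocount, which leaves out Sncg where it is listed at 0, these were 3 higher, a median of -2.14 (and -1.31 at P5), 2 lower, 2 higher with a median of -1.65, and 4 lower. Upper quartile scaling gave 1 higher for E18 against E15 and 2 higher for P5 against P2 in Cd73PC. Quantile normalization gave the same numbers for these, and 2 higher in Cd73PC at P5 and at P8. At 2-fold, Cd73PC had 0 higher at P2, where Nefh falls short on FPKM + 1. E18 against E15 had 2 lower and 1 higher, P5 against P2 in Cd73NC 0 higher, P8 against P5 in Cd73NC 0 lower and 1 higher, and P8 against P5 in Cd73PC 0 lower. Of 537 values of single genes, 45 moved, all with a pseudocount of 0 or 0.1.

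Within a stage, no paired analysis was possible because each condition has 1 library, and no replicate was left out for the same reason. A fit over the 3 stages with stage as a block was not run. The bounds describe counting and assignment in 1 library and say nothing of differences between mice, and no floor of detection can be set without the depth. Values below 1 FPKM, as are all 12 of Nefl, Sncg and Thy1 at P5 and P8, carry wide bounds, and the size of ratios that rest on them, such as those of Thy1, depends on the pseudocount. Reads from bases shared by overlapping genes cannot be assigned to a strand. This also concerns Uchl1, Rbpms and Nefl, whose spans overlap other genes in the GENCODE annotation of mm9.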
